A study of Sus scrofa domesticus with 28 samples.

Results

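Scars of pig skin can heal darker or paler than the skin around them, and this comparison set hyperpigmented against hypopigmented scar at the early phase of healing. Its members are 8 of the 28 arrays of the study: the 4 titled as early, sham-treated and hyper, and the 4 titled as early, sham-treated and hypo. The biopsies came from juvenile castrated male red Duroc pigs, a breed used because it forms thick scars. The study used 2 such pigs, numbered 49 and 50. Each pig gave 1 hyper and 1 hypo early biopsy on its left (L) and its right (R) side, which makes 4 pairs, called 49L, 49R, 50L and 50R. The control group was 4 biopsies of skin from the same animals and sides, and 8 mid-phase and 8 late-phase scar biopsies, under sham or pressure treatment, served for comparison. No scar site is named in the labels, so a pair may span different scars of one side. A title code, a1 in all hyper and a3 in all hypo biopsies, has no stated meaning and cannot be told apart from pigmentation. With 2 animals, p-values measure the spread between biopsies of these pigs and not between pigs.

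Melanin is made by melanocytes, cells that sit among the basal keratinocytes of the epidermis and the hair follicle. Tyrosinase (TYR) carries out the first step, and the related enzymes TYRP1 and DCT act later in the same pathway. The pigment is built into melanosomes, moved along the melanocyte's arms and passed to keratinocytes, under the control of receptors such as MC1R and KIT and of the transcription factor MITF. The biopsies hold all cell types of the skin, so fewer cells of a type and less RNA per cell cannot be told apart.

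Values are log2 ratios of biopsy (Cy5) to a universal pig reference RNA (Cy3), and differences are hyper minus hypo on that scale, ± SE. On the 8 early arrays, 19598 to 24165 of 43603 probes were marked by the scanner software as well above background in Cy5. The hyper arrays, with 20974 to 22284, lay within the range of the hypo arrays. The early arrays were on 5 slides, and 1 slide held both groups (hyper 49R, hyper 50L and hypo 50L). The hypo 50L biopsy stood apart. Its mean over 23 measured skeletal muscle genes was 0.29, against -2.92 to -2.41 on the other 7 early arrays and -3.14 to -2.87 in control skin. Results that rest on it are therefore given with and without it.

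Across the 18769 features tested, 0 (0%) passed the threshold of a Benjamini-Hochberg adjusted p of 0.05 in limma, and the lowest adjusted p was 0.291. At an unadjusted p under 0.05 there were 815 features (4.34%), 644 of them higher (3.43% of all features) and 171 lower (0.911%) in hyper scar. The median 95% interval of a difference reached 0.39 to either side, so small differences were not detectable with these arrays. These values come from the fit over all 28 arrays, and the unadjusted count depends on the fit. A fit of the 8 early arrays alone, with animal and side as a block, gave 0 features past the threshold. In it, 2169 of 18774 features had an unadjusted p under 0.05. Over all arrays with uncapped local background that count was 130. None of the differences between hyper and hypo early scar given below passed the adjusted threshold. They are therefore given as values with their spread. Against control skin, by contrast, 5934 features (31.6%) passed in hyper and 5560 (29.6%) in hypo early scar. These last comparisons share the same 4 control arrays.

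The 3 measured melanin enzymes were higher in every hyper than in every hypo biopsy, with hyper scar between hypo scar and control skin for TYR and TYRP1. TYR stood at 0.53, 0.23, 1.20 and 0.62 in the hyper biopsies of pairs 49L, 49R, 50L and 50R. In the hypo biopsies it stood at -0.07, -0.66, -0.13 and -0.23, and in control skin at 2.54, 3.65, 3.12 and 2.88. Every hyper value lay above every hypo value, and every control value lay above both. The difference was 0.91 ± 0.23 (95% interval 0.43 to 1.40, adjusted p = 0.999 in limma), with hyper higher in 4 of 4 pairs. The exact two-sided sign-flip permutation test over the 4 pairs gave p = 0.13, the smallest it can give. By p, TYR was 13th of all features and 3rd of the 2606 with a gene symbol. Its probe was well above background on 4 of 4 hyper, 0 of 4 hypo and 4 of 4 control arrays, and in the Cy5 channel hyper was at least 1.64-fold brighter, a bound set against the dimmest signals well above background.

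TYRP1 showed a wider gap. It stood at 1.06, 1.07, 2.07 and 1.70 in the hyper biopsies and at 0.29, 0.18, 0.32 and 0.01 in the hypo biopsies, in the same order of pairs. Control skin stood at 1.90, 2.96, 2.72 and 2.11, so the hyper and control biopsies overlapped while the hypo biopsies lay below both. The difference was 1.27 ± 0.33 (95% interval 0.58 to 1.96, adjusted p = 0.999 in limma), the 5th lowest p among genes with a symbol. TYRP1 too was well above background on 4 of 4 hyper and 0 of 4 hypo arrays. Its Cy5 signal was at least 2.22-fold brighter in hyper. This on-and-off detection was met by 22 of all features (0.117%), and of these TYR and TYRP1 were the 2 that carry a gene symbol. The reverse was met by 6 features (0.032%). By animal, TYRP1 was 0.77 and 0.89 higher in the pairs of pig 49 and 1.74 and 1.69 higher in those of pig 50. TYRP1 was not well above background in both channels on as many as 4 arrays, so its ratio rests in part on a weak reference signal.

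DCT, which converts dopachrome in the same pathway, stood at 1.05, 1.10, 1.01 and 0.80 in hyper and at 0.69, 0.46, 0.24 and 0.56 in hypo biopsies. The groups did not overlap, and control skin, at 0.86 to 1.08, lay in the range of hyper scar. The difference was 0.50 ± 0.26 (95% interval -0.04 to 1.04). All 3 measured enzymes thus had hyper above hypo on every array, while 733 of all features (3.91%) had that order and 329 (1.75%) the reverse. The size depends on the processing. TYR and TYRP1 were 0.28 and 0.42 with uncapped local background, 1.17 and 1.56 with no background correction, and 3.08 and 4.64 in the authors' value table, which differs in more than 1 step. Without hypo 50L the differences were 0.85 for TYR, 1.21 for TYRP1 and 0.34 for DCT. On the 1 shared slide the mean of the 2 hyper arrays (49R and 50L) exceeded the hypo array by 0.84 for TYR, 1.24 for TYRP1 and 0.82 for DCT. That hypo array is the muscle-rich hypo 50L. No other hypo array shares a slide with a hyper array, so the comparison cannot be made without it.

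**Figure D1:**
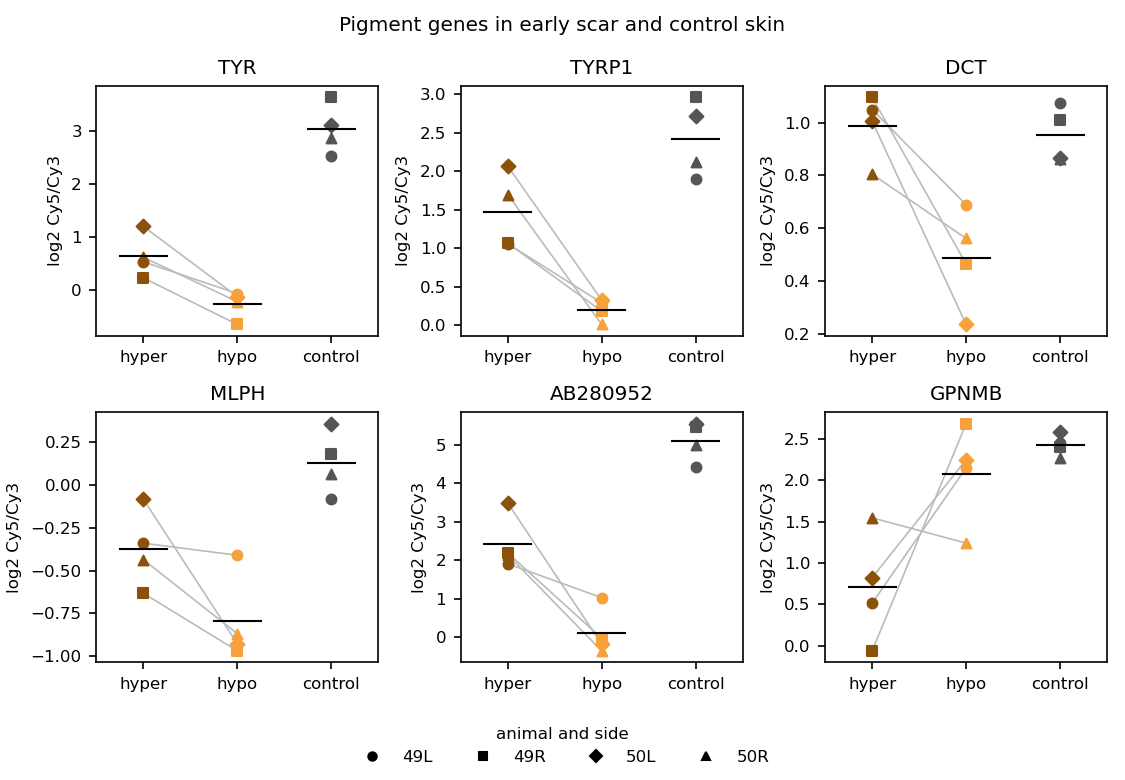
Log2 Cy5/Cy3 of 5 pigment genes and the transcript AB280952 on each array of early hyper scar, early hypo scar and control skin; symbols mark animal and side, grey lines join the pairs and black bars are means of 4 arrays. TYR, TYRP1, DCT and AB280952 have every hyper array above every hypo array, while MLPH and GPNMB overlap.

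Both scar types held less TYR than control skin. The difference from control was -2.40 in hyper (adjusted p = 1.49e-06) and -3.32 in hypo scar (adjusted p = 2.54e-08), by limma. TYRP1 was lower by limma as well, with -0.95 in hyper (adjusted p = 0.0336) and -2.22 in hypo scar (adjusted p = 8.52e-05). In the Cy5 channel control skin was at least 17.5-fold brighter than hypo scar for TYR and at least 3.96-fold for TYRP1. These bounds come from Cy5 alone, a different scale from the ratio to the reference, and need not match the fitted differences. DCT did not pass in either scar type, with 0.04 in hyper and -0.47 in hypo scar (adjusted p = 0.934 and 0.187 in limma).

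One transcript without a gene symbol, AB280952, followed the same order with a larger gap. It stood at 1.91, 2.19, 3.48 and 2.14 in hyper, at 1.03, -0.03, -0.18 and -0.36 in hypo, and at 4.41 to 5.54 in control biopsies. Hyper lay above hypo throughout, with hypo 49L nearest to the hyper values. The difference was 2.31 ± 0.42 (adjusted p = 0.291 in limma), the 2nd lowest p of all features, and 3 of 3 probes had that direction. It was well above background on 4 of 4 hyper and 1 of 4 hypo arrays. Under 1 of 25 alternatives, without hypo 49L, it was 1 of 2 features that passed (2.72, adjusted p = 0.041 in limma). It did not pass under the other 24, and leaving out 1 early array at a time gave 2.02 to 2.72.

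The remaining pigment machinery did not share one direction. Of 11 measured genes of melanosome transport, 4 had a difference above 0, against 56.8% of all features (41.4% with median centring), and the median was -0.21. MLPH, the melanophilin that links melanosomes to their motor, was 0.42 ± 0.17 and higher in hyper in 4 of 4 pairs, an order met by 12.7% of features, although the groups overlapped. It was lower than in control skin in hyper (-0.50, adjusted p = 0.0302) and in hypo scar (-0.92, adjusted p = 0.000538), by limma. Its partner RAB27A reached well above background on 0 of the 4 hyper and 0 of the 4 hypo arrays, so no order between the scar types can be read from it. AP3B1, a subunit of the adaptor that sorts cargo to melanosomes, was -0.39 ± 0.17 and lower in hyper in 3 of 4 pairs.

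Among melanosome structure genes, GPNMB, a glycoprotein of melanosomes that macrophages also make, lay the other way from the enzymes. It stood at 0.52, -0.06, 0.82 and 1.55 in hyper and at 2.15, 2.68, 2.25 and 1.24 in hypo biopsies. Pair 50R ran against the other 3, and the difference was -1.38 ± 0.68. OCA2, a melanosomal membrane protein, was well above background on 0 hyper and 1 hypo array. PMEL and MLANA were not analysed here.

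The 8 measured receptors and regulators of melanocytes had differences from -0.20 to 0.25 with a median of -0.01. Of these 8, 1 was well above background on no early array. The highest difference was that of the endothelin receptor EDNRB (0.25 ± 0.26) and the lowest that of the melanocortin receptor MC1R (-0.20 ± 0.20). The stem cell factor receptor KIT was 0.22 ± 0.24, MITF was -0.15 ± 0.28, and SOX10, a neural crest factor, was -0.09 ± 0.19. Of these, EDNRB, MC1R, MITF and SOX10 changed sign under some alternatives, so no direction can be read from them. LEF1, a nuclear partner of beta-catenin in WNT signalling, was the 1 member of this group without overlap, an order (hyper below) met by 1.75% of all features. It stood at 0.75 to 0.89 in hyper and 0.90 to 1.20 in hypo biopsies (-0.16 ± 0.31). Without hypo 49L its fitted difference was -0.01, and without hyper 49L that of KIT was 0.03. With 4 arrays a group, these intervals do not show that the levels were equal. The 12 measured signals that act on melanocytes ranged from -0.43 (DKK3, which was 0.15 in animal 50 alone) to 0.54 (PTGS2, a prostaglandin synthase) with a median of -0.12. Of these 12, 1 was well above background on no early array. Without hyper 49L, PTGS2 was 0.03 and DKK3 was -0.10. The bone morphogenetic protein BMP2 was 0.38 ± 0.21 and higher in hyper in 4 of 4 pairs, with overlapping groups, and was 0.23 without hyper 49L.

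Outside the pigment genes, epithelial genes were the group with the largest positive median. Of 8 measured genes, 7 had a difference above 0 (56.8% of all features did), 5 had every hyper array above every hypo array (3.91% of all features), and the median was 1.17, against 0.03 over all features. Averaged over the 8 genes, hyper arrays stood at -0.21, -0.45, -0.53 and -0.40, hypo arrays at -1.07, -1.12, -2.08 and -1.04, and control skin at 1.15 to 1.47. The order was that of TYR: control highest, hyper next, hypo lowest. Without hypo 50L the median of the list was 0.68.

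EPCAM, an adhesion molecule of epithelial cells, stood at -2.10, -3.32, -2.10 and -2.48 in hyper and at -3.58, -4.06, -4.45 and -3.79 in hypo biopsies. All hyper values lay above all hypo values, and 16 of 16 probes had that direction (1.47 ± 0.35). The lowest value was that of hypo 50L, and leaving out 1 early array at a time gave 1.12 to 1.74. GATA3, a transcription factor of keratinocytes, hair follicle and some lymphocytes, stood at 2.51, 1.76, 1.65 and 1.84 against 0.67, 0.77, -0.73 and 0.36 (1.68 ± 0.49). Hypo 50L was again lowest, and leaving out 1 early array at a time gave 1.29 to 1.85. CDH1, the adherens junction protein E-cadherin, was 1.05 ± 0.37, and 0.69 without hypo 50L. ESRP1, a splicing factor of epithelial cells, was 1.41 ± 0.54, and 0.67 without hypo 50L, where it was at -2.08. Against control skin, 6 of 8 epithelial genes were lower in hyper and 7 of 8 in hypo scar by limma, where 11.2% and 12.3% of all features were. The part of epithelial content in the TYR and TYRP1 differences was not tested. Across phases, the epithelial median was 1.17, 0.67 and -0.61 at early, mid and late phase, beside 0.91, 0.63 and 0.96 for TYR, 1.27, 0.96 and 0.66 for TYRP1, and 0.50, 0.47 and -0.46 for DCT. The mid and late values average sham and pressure pairs, while all early pairs were sham-treated.

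Markers of keratinocyte state did not share one direction. The 4 measured genes of differentiated keratinocytes (DSG1, KRT2, CDSN and IVL) all had differences above 0, with a median of 0.49, and 0 of them separated the groups. Their mean was -0.01 in hypo 50L against 1.64 to 2.29 on the other hypo arrays, and the median was 0.11 without hypo 50L. Of 7 genes of activated keratinocytes, 3 had a difference above 0 and the median was -0.19, which ran from -1.20 without hypo 50L to 0.48 without hypo 49L. In this list the protease inhibitor PI3 (0.47) and the defensin DEFB1 (0.41) had every hyper array above every hypo array, as did 3.91% of all features. S100A8, a calcium-binding protein that neutrophils also make in quantity, was -1.48, and -0.40 without hypo 50R, where it was at 5.57. PI3 was well above background on 1 hyper and 1 hypo array. S100A8, S100A9 and S100A12 are in the neutrophil list as well. The skin-homing chemokine CCL27, made by keratinocytes, stood at 3.17, 2.51, 2.43 and 2.48 in hyper and at 0.92, 1.84, 0.28 and 0.91 in hypo biopsies (1.66 ± 0.44). Control skin, at 4.07 to 4.41, again lay above both. PLET1, a gene of placental and epithelial progenitor cells, stood at 0.32, 0.09, 1.80 and 0.95 against -0.84, -1.04, -0.91 and -0.95 (1.73 ± 0.48), well above background on 4 hyper and 1 hypo array. No gene of the basal keratinocyte list was among the 2606 tested features with a symbol, so that list was not analysed here.

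Of the 5 measured sweat and apocrine gland genes, all with differences above 0 and a median of 0.22 (0.05 without hypo 50L), 2 were high in a single hyper biopsy. The apocrine proteins PHEROC and SCGB1D1 stood at 3.45 and 3.39 in hyper 49L and at -2.16 to -0.72 and -1.92 to -0.88 in the other hyper biopsies. Control skin stood at 5.39 to 6.07 for PHEROC and 4.58 to 5.21 for SCGB1D1. Their differences, 2.08 ± 0.77 and 1.96 ± 0.83, were 1.01 and 0.81 without hyper 49L. The same biopsy had a mean of 1.08 over 10 genes of early response and stress, against -0.43 to -0.01 on the other 7 early arrays, and without it the list's median changed from 0.46 to 0.17.

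**Figure D2:**
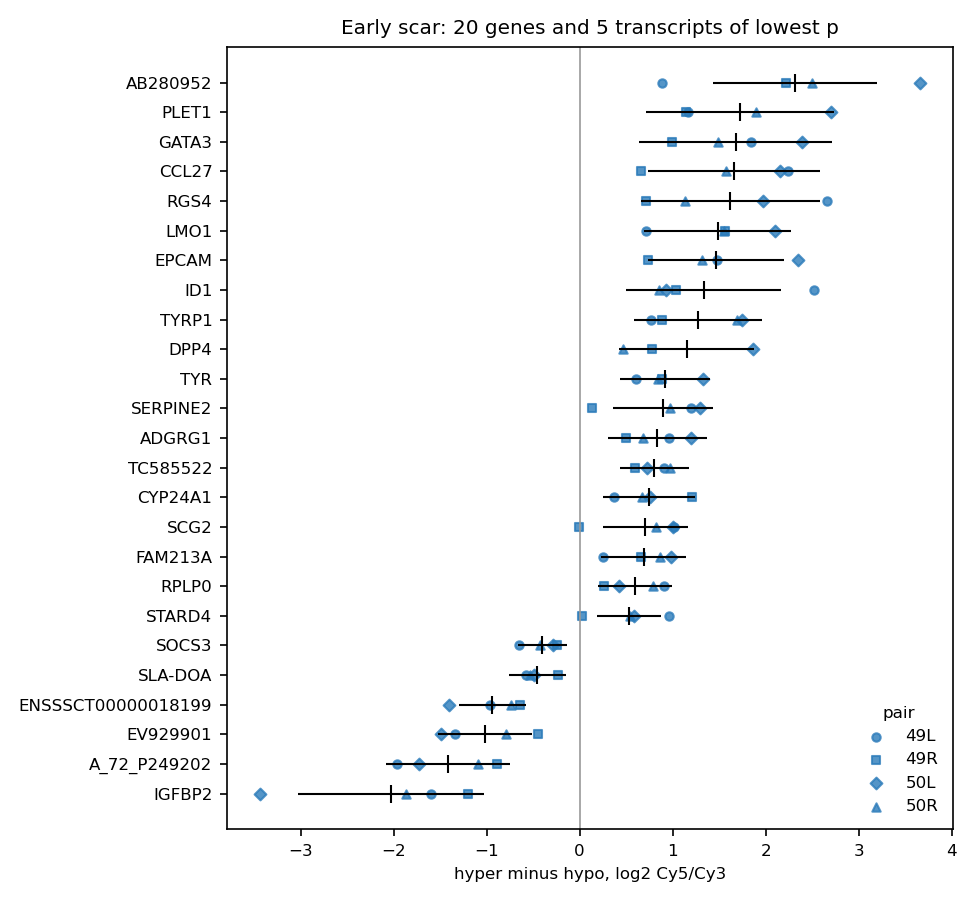
Hyper minus hypo difference in log2 Cy5/Cy3 for the 20 genes and 5 unnamed transcripts of lowest p in early scar; points are the pairs, black ticks the fitted differences and bars their 95% intervals. TYR (0.91) and TYRP1 (1.27) lie among genes such as EPCAM (1.47) and GATA3 (1.68), IGFBP2 (-2.02) lies lowest, and none passed the adjusted threshold.

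The single gene of lowest p with a symbol lay in the other direction. IGFBP2, a binding protein of insulin-like growth factors, stood at -2.57, -1.03, -1.90 and -1.15 in hyper and at -0.98, 0.17, 1.53 and 0.72 in hypo biopsies. The groups did not overlap, though hyper 49R and hypo 49L were close. It was lower in hyper in 4 of 4 pairs, as were 6.56% of all features. Its difference was -2.02 ± 0.48, and -1.49 without hypo 50L. Hyper scar did not pass against control skin (-0.25, adjusted p = 0.727), whereas in hypo scar IGFBP2 was higher than in control (1.77, adjusted p = 0.00907), by limma.

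Several other genes of lowest p were higher in hyper in all pairs measured. RGS4, a regulator of G protein signalling, stood at 4.25, 2.32, 2.83 and 1.92 in hyper and at 1.60, 1.61, 0.86 and 0.79 in hypo biopsies (1.62 ± 0.46). Unlike the epithelial genes, it was lowest in control skin, at -1.97 to -0.91. SERPINE2, a protease inhibitor, was 0.90 ± 0.26, the adhesion receptor ADGRG1 was 0.84 ± 0.25, and CYP24A1, which breaks down vitamin D, was 0.75 ± 0.24. The transcriptional regulators LMO1 (1.48 ± 0.38) and ID1 (1.34 ± 0.40) had overlapping groups, and ID1 was 0.82 without hyper 49L. The metallothionein MT1A was 1.57 ± 0.54, and 0.94 without hypo 50L, where it was at -5.41. DPP4, a peptidase of fibroblasts and other cells, was 1.15 ± 0.34 over the 3 pairs measured, since the hypo 49L spot was left out, and 0.77 without hypo 50L. It was the highest of 5 measured fibroblast genes, of which 2 had differences above 0 (56.8% of all features did). The median of that list was -0.16 and its lowest difference -0.83. RPLP0, a ribosomal protein, was 0.59 ± 0.19 with 13 of 13 probes in that direction. With median centring RPLP0 was 0.04 and CYP24A1 was 0.10. The suppressor of cytokine signalling SOCS3 (-0.40 ± 0.13) and SLA-DOA (-0.46 ± 0.15), an antigen presentation gene, were the other 2 of the 20 with hyper below hypo.

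Myeloid genes had the lowest list medians. Of 17 measured macrophage and dendritic cell genes, 1 had a difference above 0 and 6 had every hyper array below every hypo array (1.75% of all features had that order). The list median was -0.67, and -0.44 without hypo 50L. Averaged over the list, hyper arrays stood at -1.04, -0.69, -0.82 and -1.09 and hypo arrays at -0.38, -0.10, 0.26 and -0.55, without overlap. Against control skin 5 of the 17 genes were higher in hyper and 12 in hypo scar by limma, where 20.4% and 17.4% of all features were. The adaptor proteins FCER1G (-1.16 ± 0.51) and TYROBP (-1.16 ± 0.57) are shared by many myeloid receptors. Lysozyme LYZ, which macrophages and neutrophils secrete, was -2.04 ± 0.88. Without hypo 50L these differences were -0.73, -0.66 and -1.10.

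Of 11 neutrophil genes, 1 had a difference above 0, and 3 separated the groups with hyper below, an order met by 1.75% of all features. The median was -1.15, or -0.68 without hypo 50L. The complement receptor C5AR1 stood at -0.02, 0.03, -0.52 and 0.10 in hyper and at 0.52, 1.62, 2.42 and 0.95 in hypo biopsies (-1.48 ± 0.78). The hypo values were spread widely, and C5AR1 was -0.78 without hypo 50L. It was higher than in control skin in hypo scar (2.70, adjusted p = 0.0141) and did not pass in hyper scar (1.22, adjusted p = 0.251), by limma. The part of myeloid content in the GPNMB difference was not tested. T and NK cell genes (11 measured, median -0.18) and interferon response genes (21 measured, median -0.14) lay nearer to 0.

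**Figure D3:**
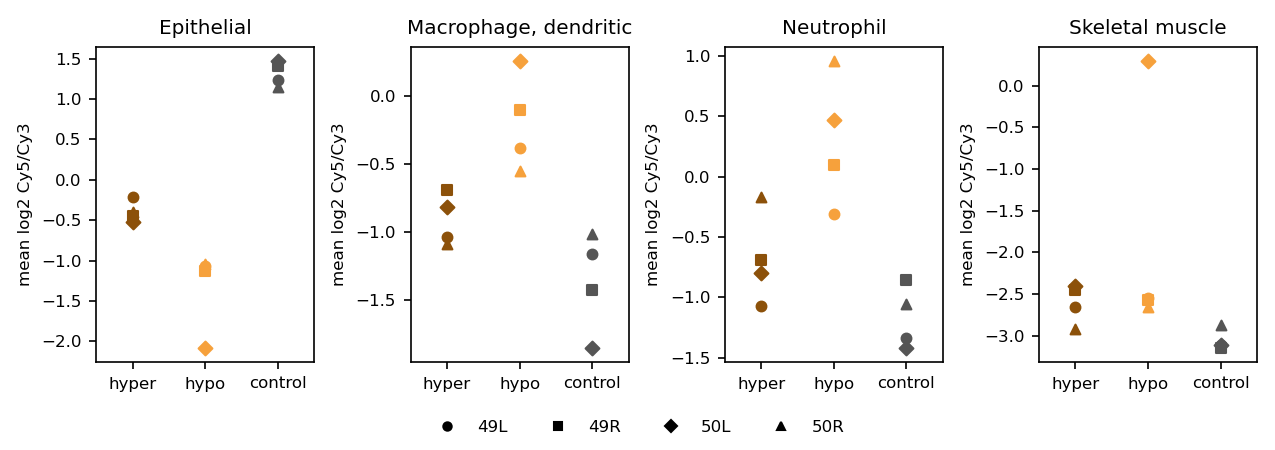
Mean log2 Cy5/Cy3 over the measured epithelial (8), macrophage and dendritic cell (17), neutrophil (11) and skeletal muscle (23) genes on each early and control array; symbols mark animal and side. Epithelial means are higher and macrophage means lower in hyper than in hypo scar without overlap, and the muscle mean of hypo 50L, 0.29, stands apart.

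The scar matrix was raised in both scar types. All 13 measured collagen and matrix genes were higher than in control skin in both scar types by limma, with list medians of 2.83 in hyper and 2.88 in hypo. Of all features, 20.4% were higher than control in hyper and 17.4% in hypo scar. Between the scar types the list had 7 of 13 differences above 0 and a median of 0.02, which ran from -0.26 without hypo 50L to 0.34 without hypo 49L. Lumican (LUM, 0.59), a proteoglycan that binds collagen, was the 1 member with every hyper array above every hypo array, an order met by 3.91% of all features. The medians were -0.10 for 14 matrix proteases and inhibitors, -0.10 for 10 genes of the TGF-beta pathway and -0.30 for 9 myofibroblast and smooth muscle genes. The last list shares DES with the skeletal muscle list. Its median was -0.83 within pair 50L and -0.17 to -0.05 within the other pairs. Leaving out 1 early array gave it -0.34 to -0.08. Endothelial genes had a median of -0.25, with 2 of 13 above 0. Within pairs 49L, 49R, 50L and 50R that median was 0.20, -0.24, -0.61 and -0.28. Leaving out 1 early array gave -0.38 to -0.11. Lipid synthesis genes of sebaceous glands (13 measured, median 0.05) and adipocyte genes (14 measured, median 0.02) lay near the median of all features. All 8 cell cycle genes had fitted differences above 0 (56.8% of all features did, 41.4% with median centring), with a median of 0.16. Within pairs 49L, 49R, 50L and 50R the median of this list was 0.45, -0.14, 0.58 and 0.02, so the pairs did not share one direction.

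**Figure D4:**
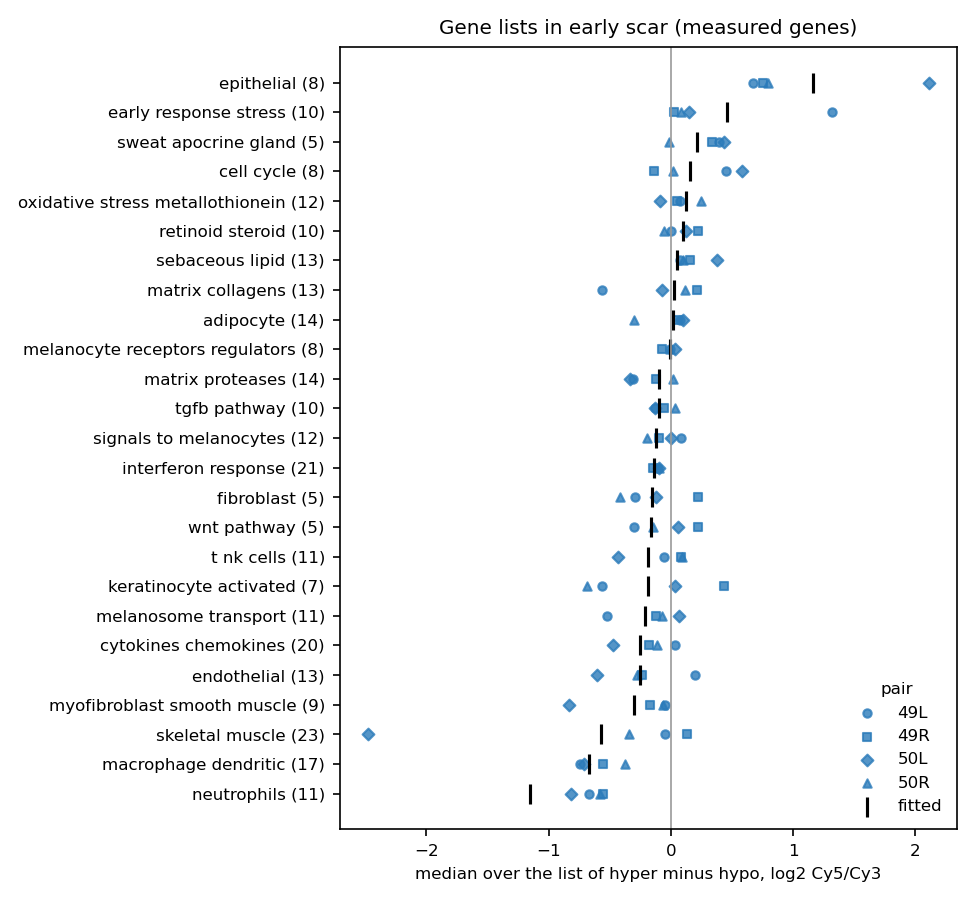
Median hyper minus hypo difference, in log2 Cy5/Cy3, over each gene list with at least 5 measured genes (number in brackets); points are medians within a pair and black ticks medians of the fitted differences, which need not lie among the pair medians. Epithelial genes lie highest (1.17) and neutrophil genes lowest (-1.15), and the skeletal muscle median rests on pair 50L (-2.48).

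The hyper minus hypo difference was also taken at later phases, in other biopsies of the same pigs. All early pairs were sham-treated. The later left-side pairs were sham-treated and the later right-side pairs were under pressure, so treatment and side cannot be told apart there. Fitted mid and late differences average both treatments, so a change from the early phase may hold a part of pressure, which was not tested. Each animal and side gave 2 later pairs, and within 5 of the 8 the number in the title, whose meaning is not stated, differed between hyper and hypo. It was the same within all early pairs. TYR was higher in hyper in all 8 later pairs, by 0.40 to 1.07 at the mid and 0.62 to 1.58 at the late phase (exact two-sided sign-flip permutation p = 0.00781, the smallest 8 pairs can give, if the pairs are taken as separate). Its fitted difference was 0.63 at mid (adjusted p = 0.543) and 0.96 at late phase (adjusted p = 0.0239), by limma. At the late phase 4.71% of all features passed. The early difference less the late one was -0.05 ± 0.32. TYRP1 was higher in 7 of 8 later pairs (exact two-sided sign-flip permutation p = 0.0391), and its early difference exceeded the late one by 0.61 ± 0.47 (adjusted p = 0.482 in limma). AB280952 was higher in all 8 later pairs, with a fitted late difference of 1.62 (adjusted p = 0.0353 in limma). DCT was higher in 5 of the 8.

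Epithelial genes did not keep their early direction at the late phase. EPCAM was higher in hyper in all 4 early pairs, in 3 of the 4 mid pairs (pair 50R, under pressure, was at -1.51) and in 1 of the 4 late pairs. Its early difference exceeded its late one by 1.96 (adjusted p = 0.0326 in limma). For GATA3 the excess was 3.11 (adjusted p = 0.0191) and for CCL27 2.75 (adjusted p = 0.0203), by limma. For 2 of the 8 genes of the list the change from early to late passed. Across all features 807 (4.3%) changed between the early and the late difference, 766 of them with the early one higher (4.08%), and 0 (0%) changed between early and mid, where 333 (1.77%) had an unadjusted p under 0.05. The count of 807 depends on single arrays and on the scaling: it ran from 192 without late sham hyper 49L to 1572 without late sham hyper 50L, was 1 in animal 50 alone, and with median centring was 113, of which 1 had the early difference higher. The late hypo arrays had 13709 to 17978 probes well above background, fewer than any early array, and the part of this in the change was not tested. Skeletal muscle also differed within late pairs. Its list mean was 2.47 in hyper against -2.50 in hypo for pair 49R, and -0.93 against -2.39 for 49L. In pig 50 it was lower in hyper, at -2.59 against -1.54 for 50L and -2.81 against -1.57 for 50R. At the mid phase pair 49R stood at 1.60 in hyper against -1.58 in hypo. The part of muscle content in the change was not tested.

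**Figure D5:**
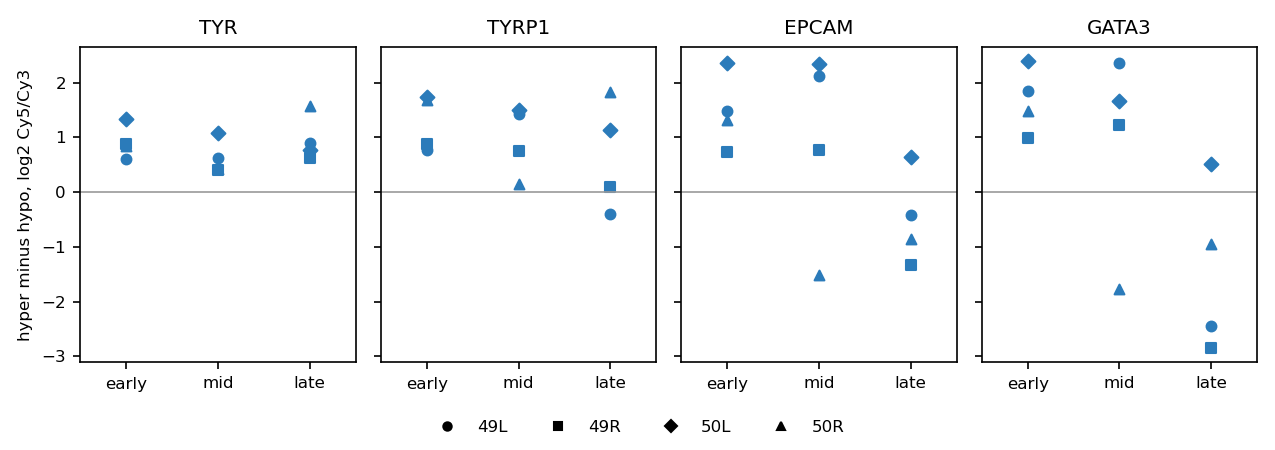
Hyper minus hypo difference in log2 Cy5/Cy3 of each pair at the early, mid and late phase, for TYR, TYRP1, EPCAM and GATA3; each phase has 4 pairs and symbols mark animal and side. TYR lies above 0 in every pair, while EPCAM and GATA3 lie above 0 in all early pairs and in 1 of 4 late pairs. Mid and late pairs of the right side were under pressure.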

How the data were processed

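RNA of 28 skin biopsies was hybridised to 2-colour Agilent arrays, biopsy in Cy5 and a universal pig reference in Cy3, without dye swap, per the labels. Feature Extraction 10.7.1.1 gave spot and local background intensity and a log10 ratio, per the file headers. The authors also deposited a log2 value table, equal to the scanner's processed log2 ratio within 0.001 for 99.97 to 99.99% of probes.

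Median intensities were corrected with normexp (limma 3.58.1, R 4.3.3, offset 50), with local backgrounds capped at the 99th percentile, and normalised by loess within arrays. Outlier spots were left out. Probes well above background in Cy5 on at least 4 arrays were kept (24513 of 43603), and the brightest probe stood for a gene or accession, named through RefSeq, so 2606 of 18769 features carry a symbol. One limma fit over 28 arrays used 11 group means with animal and side as a block of 4 levels, since the titles give a shared animal and side. Early hyper and hypo samples of the same animal and side correlated in their deviations by 0.06, 0.18, 0.11 and 0.26. Those of a different animal or side ran from -0.21 to 0.14, highest for hyper 49L with hypo 49R. P-values were Benjamini-Hochberg adjusted over all features. The fit was tested on simulated data.

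The members, the lists, the cap and the rule for named genes were chosen with earlier results of these data known. The rule names pigment genes, the 20 genes with a symbol and 5 transcripts of lowest p, and up to 4 lowest-p members of a described list. Of 10 list members matched through a RefSeq synonym, 2 (PIP as FABP6, MKI67 as NIFK) were left out because the symbol names another gene. That exclusion was made after the list values had been seen. The number of arrays limits the precision.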

Additional observations from a re-analysis of the deposited data

Results flagged for a closer look

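Among the 156 sets of 4 early arrays looked at (each named gene and each list mean, within hyper and within hypo scar), 11 had a value far from the other 3. By chance about 1 in 20 such sets would. In hyper scar these were CCL27 at 3.17 in biopsy 49L, ADGRG1 at -0.44 and TYROBP at -1.25 in 49R, MITF at 0.28 in 49L, and the means of the sweat and apocrine gland list (0.76 in 49L) and the fibroblast list (1.52 in 49R). In hypo scar they were LEF1 at 1.20 in 49L, S100A8 at 5.57 in 50R, and ESRP1 at -2.08, the epithelial list mean at -2.08 and the skeletal muscle list mean at 0.29, all in 50L.

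The early difference departed from the late one, by the limma interaction, for 807 features. Among the genes described, the early minus late value was 3.11 for GATA3, 2.97 for MT1A, 2.75 for CCL27, 2.20 for LMO1, 1.96 for EPCAM, 1.96 for CYP24A1, 1.32 for SERPINE2, 1.24 for the defensin DEFB1, 1.18 for the protease inhibitor PI3 and 1.04 for STARD4, a sterol transfer protein. It was -0.87 for the transcript ENSSSCT00000018199. PI3 was well above background on 1 hyper and 1 hypo array at the early phase, and on 0 hyper and 1 hypo array at the late phase. STARD4 was so on 4 hyper and 4 hypo early arrays, and on 1 hyper and 1 hypo late array. The late values of PI3 and STARD4 thus lie mostly near background.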

How the results depend on the processing

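The count of features between early hyper and hypo scar was 0 under 24 of 25 alternatives and ran from 0 to 2 when 1 early array was left out (2 without hypo 49L). In the fit of the 8 early arrays alone, with the block, the adjusted p in limma was 0.12 for TYR and 0.118 for TYRP1. These were the lowest of any alternative. TYR stayed positive and short of the threshold under 25 alternatives (0.28 with uncapped background to 3.08 in the authors' value table, 0.79 to 1.08 leaving out 1 array). TYRP1 did so under 24 (0.42 to 4.64, and 1.14 to 1.40). The alternative without a TYRP1 value kept only probes well above background in both channels on at least 4 arrays, a filter TYRP1 did not pass. Without the replicate block the early count was again 0 and the early against late count 967 in place of 807, and the block changed no other call reported for these counts, TYR or TYRP1. The sign turned for EDNRB (-0.0146 with slide as a fixed block, -0.18 in animal 50 alone, -0.046 to 0.464 leaving out 1 array, lowest without hyper 49L), SOX10 (0.0381 without background correction, 0.097 with slide as a block, -0.20 to 0.0984 leaving out 1 array, highest without hyper 50L), MC1R (0.0381 with slide as a block), MITF (-0.21 to 0.0064 leaving out 1 array, highest without hypo 50L) and DKK3 (0.15 in animal 50 alone), and for no other gene recomputed. Median centring moved the share of positive early differences from 56.8 to 41.4%.

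The early against late count was 96 with uncapped background, 113 with median centring, 476 in the value table, 435 with slide as a fixed block, 2172 in animal 49 alone and 1 in animal 50 alone. Leaving out 1 array gave 192 to 1572: 316, 353 and 462 without hyper 49L, 50R and 49R, 313, 350 and 391 without hypo 50R, 49R and 50L, all early, and 192, 297, 1572 and 358 without late sham hyper 49L, late pressure hyper 49R, late sham hyper 50L and late sham hypo 50L. The early against mid count was 97 in animal 49 alone and 0 to 7 leaving out 1 array. The cause of these shifts was not tested. Leaving out mid and late arrays was chosen after seeing the data, as was the matching of lists. With all synonyms kept, the gland list median was 0.16 in place of 0.22, and with symbols alone the macrophage median was -0.65 in place of -0.67.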
